A study of Mus musculus with 768 samples.

Results

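Elastic fibre and microfibril genes were followed across single cancer-associated fibroblasts (CAFs) of the mouse mammary gland. The set comprised 10 of the 24490 genes in the count table, chosen by symbol: *Eln*, *Fbn1*, *Fbln1*, *Fbln2*, *Fbln5*, *Efemp1*, *Efemp2*, *Mfap2*, *Mfap4* and *Mfap5*. The cells were taken from tumors of mice of the strain FVB/N-Tg(MMTVPyVT)634Mul/J, aged 14 weeks, in which the MMTV promoter drives the polyoma middle T oncoprotein in the mammary epithelium, so that every cell analysed came from a transgenic tumor and there was no normal tissue to compare with. Cells negative for EpCAM, CD45, CD31 and NG2 were sorted singly and sequenced with Smart-seq2, a full-length method without strand information, in 768 wells drawn in equal number from 2 tumors. Each tumor filled its own plate, so tumor and plate cannot be told apart.

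Elastic fibres give tissues their recoil. Elastin, the product of *Eln*, is secreted as soluble monomers that are laid on a scaffold of microfibrils and crosslinked by lysyl oxidases. Microfibrils are polymers of fibrillin-1 (*Fbn1*) to which the microfibril-associated proteins bind, and they also store latent TGF-beta, while short fibulins (*Fbln5*, *Efemp1* and *Efemp2*) bring elastin, microfibrils and crosslinking enzymes together.

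The members lie on 8 chromosomes and are all protein-coding. In the RefSeq annotation of GRCm38.p6, the assembly known as mm10 that the authors' reads were aligned to, *Eln* spans chr5:134702595-134747368, *Fbn1* chr2:125300594-125506485, *Mfap2* chr4:141010424-141015976 and *Mfap4* chr11:61485431-61488708. *Mfap5* (chr6:122513584-122529290) and *Fbln2* (chr6:91212460-91272540) share a chromosome, as do *Mfap4* and *Efemp1* (chr11:28853154-28926743). *Fbln1* (chr15:85205949-85286294), *Fbln5* (chr12:101746565-101819119) and *Efemp2* (chr19:5473946-5482520) complete the set. Because reads carry no strand, exons shared with a gene on the opposite strand matter: in GENCODE, Gm9913 covers 20.1% of the exonic bases of *Fbn1*, and the corresponding shares were 4.57% for *Efemp2* (*Mus81*), 4.63% for *Mfap4* (*Mapk7*) and 3.30% for *Eln* (Gm30003). The other 6 members share no exonic base.

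The bases before the transcription start are shown for 4 members, those whose window was outside the gene and free of annotated exons. Of these, *Fbln1*, *Fbln5* and *Efemp1* differed strongly in summed counts between the classes of cells described below, and *Efemp2* was high in both. By mean level *Efemp1* differed least of all members. The RefSeq promoter table has entries for 7 of the 10 members. *Eln*, *Mfap4* and *Mfap5* have none, and for *Fbn1*, *Mfap2* and *Fbln2* the window overlaps annotated exons or lies inside the gene. The stretches run 5′ to 3′ on the strand of the gene and end at the base before its outermost annotated start: chr15:85205699-85205948 (plus strand), chr12:101819120-101819369 (minus strand), chr11:28852955-28853153 (plus strand) and chr19:5473696-5473945 (plus strand). Capitals mark matches, on either strand, to the TATA box (TATAAA), to the CCAAT box, to the GC box (GGGCGG), to the AP-1 motif (TGANTCA) and to the TEAD motif (GGAATG).
Fbln1: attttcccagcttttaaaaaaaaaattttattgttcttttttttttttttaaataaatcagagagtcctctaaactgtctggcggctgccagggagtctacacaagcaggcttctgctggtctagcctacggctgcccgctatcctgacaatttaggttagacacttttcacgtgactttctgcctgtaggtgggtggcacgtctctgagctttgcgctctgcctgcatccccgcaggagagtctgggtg
Fbln5: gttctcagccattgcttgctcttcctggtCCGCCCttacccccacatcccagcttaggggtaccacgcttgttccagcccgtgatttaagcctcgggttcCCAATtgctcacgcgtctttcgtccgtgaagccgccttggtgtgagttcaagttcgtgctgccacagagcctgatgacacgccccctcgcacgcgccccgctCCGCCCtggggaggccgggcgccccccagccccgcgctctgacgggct
Efemp1: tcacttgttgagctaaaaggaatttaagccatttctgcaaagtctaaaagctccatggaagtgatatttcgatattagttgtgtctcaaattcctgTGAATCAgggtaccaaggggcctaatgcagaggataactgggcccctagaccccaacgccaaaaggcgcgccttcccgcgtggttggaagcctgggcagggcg
Efemp2: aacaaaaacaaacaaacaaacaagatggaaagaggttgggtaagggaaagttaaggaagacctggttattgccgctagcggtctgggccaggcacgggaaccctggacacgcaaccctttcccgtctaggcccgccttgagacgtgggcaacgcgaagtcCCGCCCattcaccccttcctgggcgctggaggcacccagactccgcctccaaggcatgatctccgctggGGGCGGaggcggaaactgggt

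The 4 upstream stretches differed in base composition. That of *Fbln5* was the richest, with 65.2% G and C and 8.4 CG pairs per 100 bases, and that of *Efemp2* had 59.2% and 6.0 CG pairs per 100 bases. The stretches of *Fbln1* (46.4%, 2.8 CG pairs per 100 bases) and *Efemp1* (49.7%, 3.52 CG pairs per 100 bases) lay below the median G and C content of 52.4% over all 32851 windows of the table. The GC box occurred 2 times in *Fbln5* and 2 times in *Efemp2*, against 32.7% of all windows with at least 1. *Fbln5* also held 1 CCAAT (33.8% of windows), *Efemp1* held 1 AP-1 sequence (6.75% of windows), and no stretch of the 4 held TATAAA (12.4%) or GGAATG (12.6%). A match describes letters only, and binding was not measured.

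Of 768 wells, 727 had at least 10000 reads of mouse genes, which were 97.1% of the wells of tumor 1 and 92.2% of those of tumor 2, with medians of 219264 and 198180 reads. Wells were classed by 2 genes outside the set, using log2(RPKM + 1), where RPKM is the number of reads scaled to the length of the gene model and to the mappable reads of the well. Vascular (Rgs5-high) wells had *Rgs5*, a pericyte regulator of G protein signalling, at 5 or more on this scale and at least 2 above *Dcn*, the proteoglycan decorin, and matrix (Dcn-high) wells the reverse. This gave 87 matrix wells in tumor 1 and 84 in tumor 2 (23.3% and 23.7% of the wells with enough reads), and 507 vascular wells, which made up 71.05% and 68.4%. Another 39 wells had both genes below 5 (low wells), and 10 wells with both genes at similar levels were left out as mixed. No doublet caller was run on the sorted wells, and some wells with both genes remained in the classes: *Dcn* reached 10.05 in a vascular well and *Rgs5* 9.90 in a matrix well, and 7 matrix and 12 vascular wells had the genes within 4 of each other.

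The classes carried the markers of their names. The summed mean RPKM of 10 other vascular markers was 4561 and 5041 in the vascular wells against 110.8 and 134.8 in the matrix wells, and that of 8 matrix markers such as *Lum* and *Pdgfra* was 4215 and 3676 in the matrix wells against 116.1 and 176.3. The sum of 6 smooth muscle markers was higher in the vascular class (3424 and 2467 against 748 and 1078). *Acta2*, *Myl9* and *Myh11* followed it in both tumors, whereas *Smtn* had higher mean levels in matrix wells (3.68 and 3.41 against 2.72 and 3.06). By mean RPKM *Tagln* changed direction between the tumors, and *Cnn1* was near the floor in both classes. The part of these markers in the results was not tested. The 7 endothelial markers summed to 67.7 and 123.2 in vascular wells against 1.21 and 1.22 in matrix wells, of which *Emcn*, the sialomucin endomucin, made up 62.7 and 120.04, while *Pecam1* and *Cdh5* were listed at 0 in vascular wells. Of 4 adipocyte markers, *Fabp4*, a fatty acid binding protein, also moved with the vascular class (506 and 523 against 0.770 and 0.761), with *Adipoq* and *Cidec* at 0 in both classes. The part of *Emcn* and *Fabp4* in the results was not tested. The 6 immune markers summed to at most 23.5 in either class. Matrix wells held slightly more reads (medians 276708 and 232394.5 against 202729 and 190825), and ERCC spike-in RNA made up 6.36% and 6.22% of their reads against 14.3% and 12.4% in vascular wells.

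All 10 members were higher in matrix wells than in vascular wells, in both tumors. Counts were summed over the wells of a class in each tumor, and these 4 sums were tested with the quasi-likelihood test of edgeR, adjusted after Benjamini and Hochberg over 11592 genes, with the tumor as the replicate (n = 2) and a call at an adjusted p below 0.05. The test called 10 of 10 members higher and 0 lower, where 9.83% of all genes tested were called higher and 6.76% lower. The median log2 fold change was 5.40 over the members and -0.04 over all genes. *Efemp1* and *Mfap4* passed the filter on low values (an RPKM averaging 1 or more in the wells used) only through matrix wells and so had to differ, whereas the other 8 members reached that mean in both classes of both tumors. *Mfap5*, *Fbln1* and *Fbln2* are named in the study as matrix CAF genes on these cells, and their direction is not independent evidence. At an adjusted p of 0.001, 5 members (*Efemp1*, *Eln*, *Fbln1*, *Fbln5* and *Mfap4*) stayed called, against 1.31% of all genes called higher. *Efemp1* and *Mfap4* among these 5 had to differ. The study also set 0.001, but with another test, single cells as replicates and each population against the others pooled. The same threshold is therefore not the same criterion here.

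**Figure D1:**
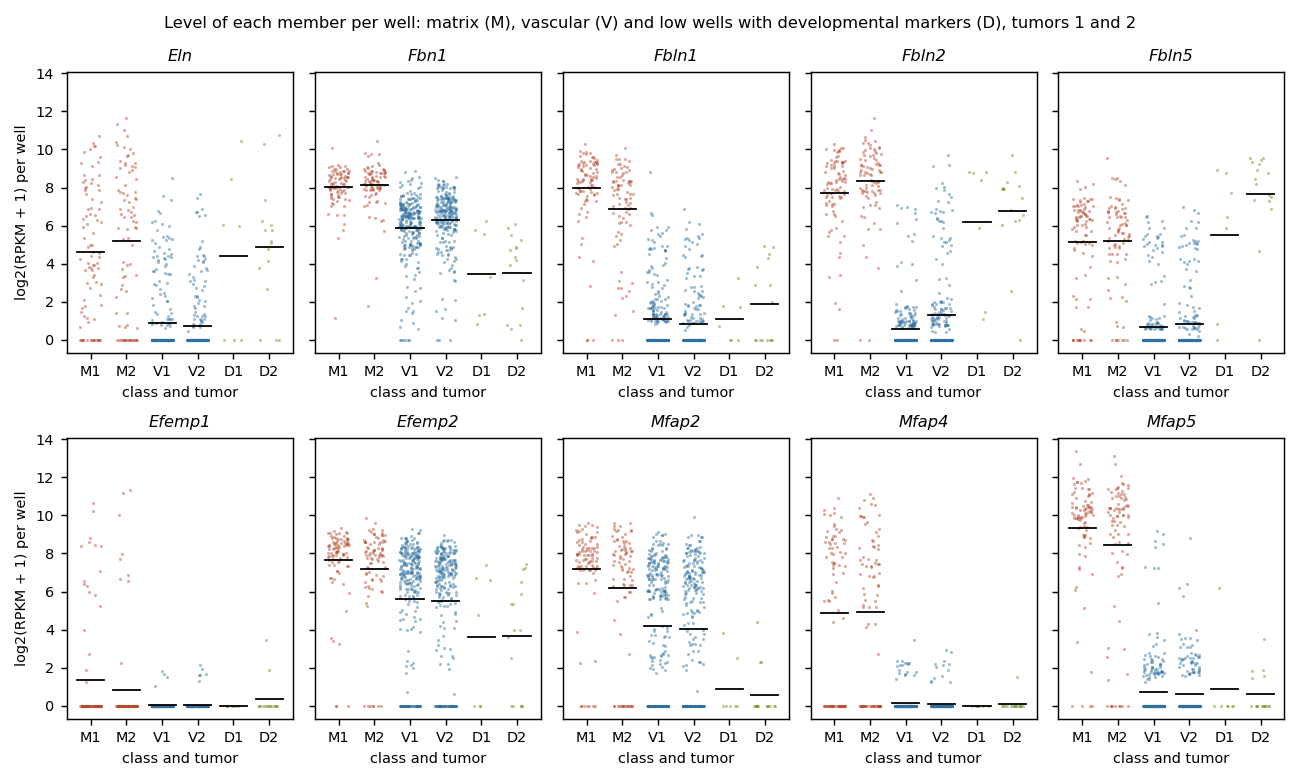
Level of each member per well as log2(RPKM + 1), by class and tumor (M, matrix; V, vascular; D, low wells with developmental markers; 1 and 2, the tumors); each point is 1 well and the bar is the mean over wells. *Fbn1*, *Efemp2* and *Mfap2* had high values in both M and V, whereas V lay mostly at 0 for *Eln*, *Mfap4*, *Mfap5* and the other fibulins.

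Elastin itself was scattered among matrix wells. The mean level of *Eln*, as log2(RPKM + 1), was 4.60 in the matrix wells of tumor 1 and 5.20 in those of tumor 2, against 0.91 and 0.71 in vascular wells. Single matrix wells ran from 0 to 10.7 (median 4.33) in tumor 1 and from 0 to 11.7 (median 6.07) in tumor 2. The difference between the summed counts was 41.5-fold (log2 fold change 5.37, SE 0.34, adjusted p = 0.000654). A few wells carried much of it: 6 of the 87 matrix wells in tumor 1 and 8 of the 84 in tumor 2 held 50% or more of the *Eln* reads. In vascular wells the median was 0 in both tumors, and a single well gave 32.5% of the 1128 *Eln* reads of tumor 2. That well was 1 of 6 vascular wells of the tumor with at least 4 of 7 developmental markers (*Trf*, *Mia*, *Scrg1*, *Sox9*, *Sox10*, *Lcn2* and *Spint2*), and the other 5 held 1 *Eln* read. Whether those markers bear on the vascular *Eln* signal was not tested.

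*Fbn1*, the backbone of the microfibril, was the most widely expressed member. It was read in 100% of matrix wells of both tumors and in 97.7% and 98.8% of vascular wells. Its mean level was 8.02 and 8.13 in matrix wells and 5.87 and 6.32 in vascular wells, a difference of 3.59-fold in summed counts (log2 fold change 1.84, SE 0.19, adjusted p = 0.00273). Single wells overlapped between the classes: the highest vascular wells reached 8.85 and 8.58, above the matrix medians of 8.20 and 8.34. Of the vascular wells, 3.02% and 1.24% (8 and 3 wells) were at or above those medians.

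The microfibril-associated proteins fell into different patterns. *Mfap2*, which encodes the small glycoprotein MAGP-1, was abundant in both classes, with mean levels of 7.21 and 6.17 in matrix wells and 4.17 and 4.05 in vascular wells (3.05-fold in summed counts; log2 fold change 1.61, SE 0.17, adjusted p = 0.00329). It was read in 91.95% and 80.95% of matrix wells and in 67.2% and 64.5% of vascular wells, and 9.81% and 18.2% of vascular wells were at or above the matrix median. The classes therefore overlapped well by well, while the 4 sums did not.

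*Mfap5*, which encodes the related MAGP-2, was the most abundant member in matrix wells. Its mean level there was 9.36 and 8.42 and its median 10.1 and 9.99, while the highest well reached 13.4 in tumor 1. In vascular wells the means were 0.74 and 0.63, and 0 of the 507 wells reached the matrix median. The difference was 247.3-fold (log2 fold change 7.95, SE 0.70, adjusted p = 0.00177), with a log2 fold change of 7.42 in tumor 1 alone and 8.94 in tumor 2 alone. The vascular level rested on few wells, since 1 well gave 64.5% of the vascular *Mfap5* reads in tumor 2 and 1 gave 32.7% of those in tumor 1.

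*Mfap4*, a fibrinogen-related protein that binds elastin and fibrillin, was on or off among matrix wells. It was read in 60.9% of the matrix wells of tumor 1 (95% exact binomial interval 49.9 to 71.2%) and in 64.3% of those of tumor 2 (53.1 to 74.4%), where its median RPKM was 310.5 and 190 in the wells that had a read. All vascular wells of tumor 1 together held 21 reads and those of tumor 2 held 15, against 9740 and 10253 in the matrix wells. The fitted log2 fold change was 10.65 (SE 0.28, adjusted p = 0.000168). No vascular well had 10 reads, which allows a share of such wells of up to 1.13% in tumor 1 and 1.24% in tumor 2 if a count of 0 is taken to allow up to 3 wells, a one-sided limit unlike the two-sided intervals above. These intervals and limits cover counting error only.

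Among the fibulins, those that act in elastic fibre assembly were not alike. *Fbln5*, which tethers elastin to integrins and to microfibrils, had mean levels of 5.12 and 5.18 in matrix wells and 0.69 and 0.83 in vascular wells (17.2-fold in summed counts; log2 fold change 4.10, SE 0.17, adjusted p = 0.000233). *Efemp2* (fibulin-4), which is needed for the activation of lysyl oxidase, was high in both classes, at 7.67 and 7.19 against 5.62 and 5.49, and differed least of all members in summed counts (2.45-fold; log2 fold change 1.29, SE 0.17, adjusted p = 0.00672). By the difference in mean level, *Efemp1* (1.32 and 0.80) lay below *Efemp2* (2.05 and 1.70). *Efemp2* was read in 80.8% and 80.99% of vascular wells, and 13.2% and 17.8% of them were at or above the matrix medians of 8.22 and 7.92.

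*Efemp1* (fibulin-3) was the rarest member. It was read in 18 of 87 matrix wells of tumor 1 (20.7%; exact interval 12.7 to 30.7%) and in 9 of 84 of tumor 2 (10.7%; 5.02 to 19.4%). Wells that had it could be high, up to 10.7 and 11.3 on the log2 scale. A single well gave 31.7% of its 2273 matrix reads in tumor 1 and another 56.7% of the 3907 in tumor 2. The vascular wells held 4 and 7 reads in all, so the fitted log2 fold change of 10.65 (SE 0.60, adjusted p = 0.000488) rests on very low vascular counts and on few matrix wells.

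The larger fibulins marked nearly every matrix well. *Fbln1*, a basement membrane and microfibril component, was read in 96.6% and 96.4% of matrix wells at mean levels of 7.98 and 6.87, against 1.09 and 0.84 in vascular wells (68.1-fold in summed counts; log2 fold change 6.09, SE 0.38, adjusted p = 0.000654). *Fbln2*, which bridges fibrillin, fibronectin and versican, was read in 97.7% and 97.6% of matrix wells, at 7.70 and 8.33 against 0.58 and 1.32 (43.1-fold; log2 fold change 5.43, SE 0.85, adjusted p = 0.0113). It had the largest SE and, in summed counts, the largest gap between the tumors: the log2 fold change was 6.76 in tumor 1 alone and 4.92 in tumor 2 alone, whereas the difference in mean level over wells was 7.11 and 7.01. The vascular wells of tumor 2 held 4957 *Fbln2* reads against 1084 in tumor 1, and 6 wells gave 50.0% or more of the reads in tumor 2 whereas 4 did so in tumor 1. The 6 vascular wells with developmental markers gave 0.565% of those of tumor 2.

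**Figure D2:**
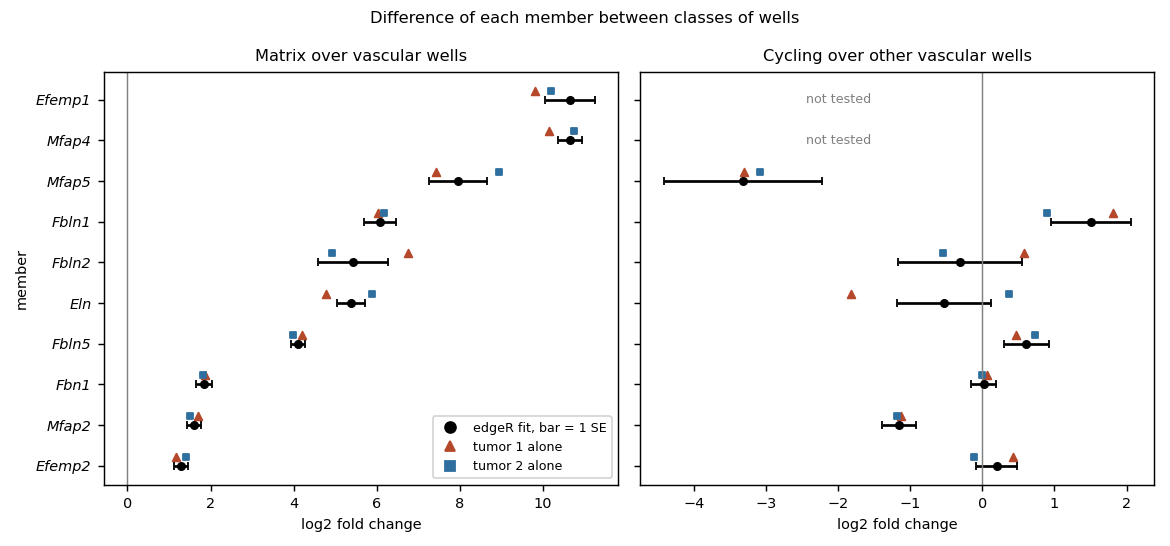
log2 fold change of each member between matrix and vascular wells (left) and between cycling and other vascular wells (right); black points are the edgeR fit with a bar of 1 SE, triangles tumor 1 alone and squares tumor 2 alone. On the left the 10 members run from 1.29 (*Efemp2*) to 10.65 (*Efemp1* and *Mfap4*); on the right they run from -3.32 (*Mfap5*) to 1.50 (*Fbln1*), and *Eln*, *Fbln2*, *Fbn1* and *Efemp2* have opposite signs in the 2 tumors.

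The order of the members differed between the classes. In matrix wells *Mfap5* came first (mean of the 2 tumors 8.89 ± 0.66, SD, n = 2), above *Fbn1* (8.08 ± 0.08), and *Fbn1*, *Fbln2* (8.01 ± 0.45), *Fbln1* (7.43 ± 0.79), *Efemp2* (7.43 ± 0.34) and *Mfap2* (6.69 ± 0.73) each overlapped the next in the values of the tumors. *Fbln5* (5.15 ± 0.04), *Mfap4* (4.91 ± 0.03) and *Eln* (4.90 ± 0.43) lay below them, and *Efemp1* (1.09 ± 0.35) was last. The values of *Eln* in the 2 tumors (4.60 and 5.20) spanned those of both *Mfap4* and *Fbln5*. In vascular wells *Fbn1* (6.09 ± 0.32), *Efemp2* (5.55 ± 0.09) and *Mfap2* (4.11 ± 0.08) stood apart from each other and from the rest. The next 5, from *Fbln1* (0.97 ± 0.18) to *Mfap5* (0.68 ± 0.07), overlapped as neighbours, and *Mfap4* (0.12 ± 0.02) and *Efemp1* (0.03 ± 0.01) were lowest. By the mean of the 2 tumors, *Mfap5* went from first in matrix wells to eighth in vascular wells. In the vascular wells of tumor 1 it lay above *Fbln5* and *Fbln2* (0.74 against 0.69 and 0.58), so that place is not firm.

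In relative terms, the RNA of the set had another make-up in each class. The mean RPKM of the 10 members summed to 3612 and 3648 in matrix wells and to 353.4 and 365.3 in vascular wells. *Mfap5* made up 39.2% and 34.8% of that sum in matrix wells and 3.11% and 1.03% in vascular wells. *Efemp2* (40.2% and 34.5%), *Fbn1* (25.4% and 30.5%) and *Mfap2* (25.0% and 23.9%) made up most of it in vascular wells, where *Eln* held 2.09% and 1.44%. The 2 tumors of a class were closer to each other than to the other class for each of these 4 genes; for *Eln*, the matrix shares were 4.86% and 8.50%.

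**Figure D3:**
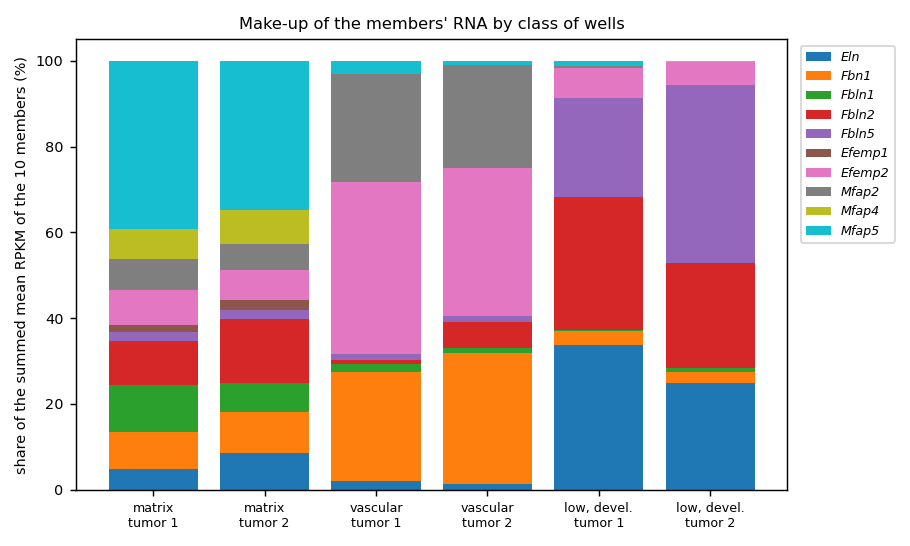
Share of each member in the summed mean RPKM of the 10 members (vertical axis, %) for each class and tumor; the segments of a bar add up to 100%. *Mfap5* is the largest segment in both matrix bars (39.2% and 34.8%), *Efemp2* in both vascular bars (40.2% and 34.5%), and *Eln*, *Fbln2* and *Fbln5* fill most of the bars of low wells with developmental markers.

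In these plates, genes of one class were often read at a low level in wells of the other class. *Rgs5* was read in 94.3% and 85.7% of matrix wells at a median of only 7.05 and 6.58 RPKM where read, and *Dcn* in 48.7% and 36.4% of vascular wells at 3.59 and 3.21 RPKM, although the class rule itself keeps both low there. The vascular shares of *Fbln1* (42.3% and 31.4%) and *Fbln2* (31.3% and 42.98%) were of the size of that of *Dcn*, with medians of 2.53 and 3.68 RPKM and of 1.02 and 2.17 RPKM where read. With each well thinned to 50000 reads they fell to 20.3% and 18.1% for *Fbln1* and to 13.3% and 24.2% for *Fbln2*, whereas the matrix shares stayed at 93.8% or higher. At 10 reads or more, a criterion added after the values were seen, *Mfap5* was left in 3.40% and 0.413% of vascular wells, no more than *Dcn* (3.77% and 3.72%), although its highest vascular wells reached 583 and 442 RPKM. *Eln* (12.8% and 7.85%), *Fbln5* (11.7% and 11.2%), *Fbln1* (9.81% and 9.09%) and *Fbln2* (5.28% and 13.6%) had higher shares than *Dcn* by that criterion, as had *Fbn1*, *Efemp2* and *Mfap2* (48.8% or more). Since the class rule keeps *Dcn* low in these wells, its share is no measure of the signal in cells without a gene, and none was tested.

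**Figure D4:**
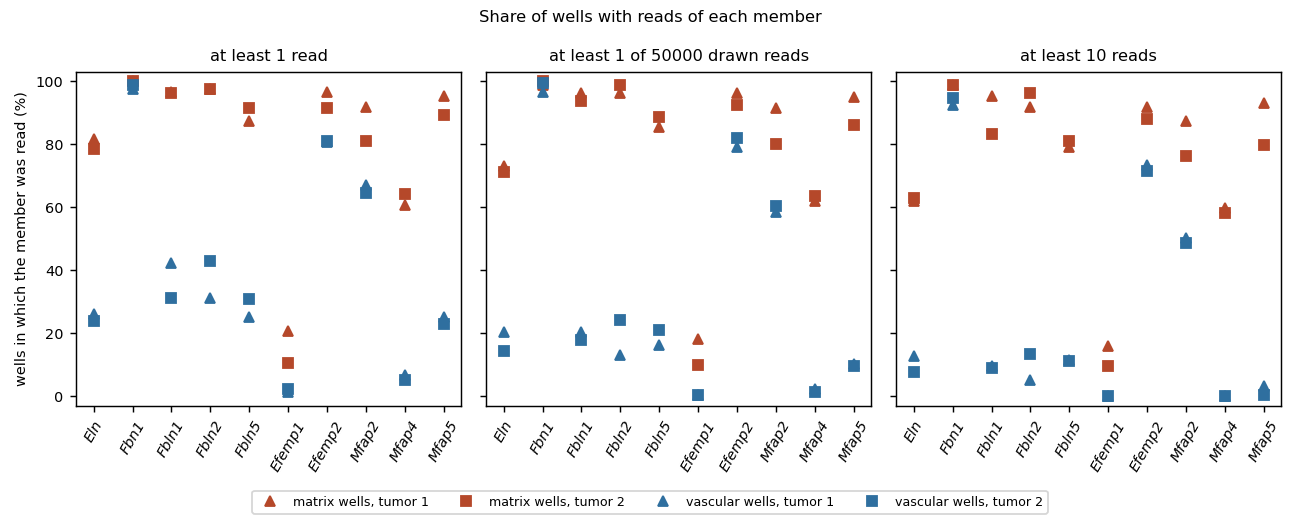
Share of wells (%) in which each member was read, in matrix (red) and vascular (blue) wells of tumors 1 (triangles) and 2 (squares), by at least 1 read, by at least 1 of 50000 reads drawn per well, and by at least 10 reads. *Fbn1* stayed above 92% in both classes, and the vascular shares of *Mfap4*, *Mfap5* and *Efemp1* fell to 3.40% or less at 10 reads.

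Matrix wells combined many members. They had a read of 9 (tumor 1) and 8 (tumor 2) of the 10 members in the median, and 78.2% and 70.2% of them had at least 8, against 4 and 4 members and 0.377% and 0.0% of vascular wells. Thinned to 50000 reads, the medians were 9 and 8 in matrix wells and 3 and 3 in vascular wells. Within a class, the levels of the members were only weakly related from well to well. Over the 87 and 84 matrix wells, Spearman's rho, averaged over the tumors, ranged from -0.04 to 0.33 with a median of 0.19 over the 45 pairs, and 11 pairs exceeded 0.2 in both tumors. The highest were *Fbn1* with *Fbln2* (0.34 and 0.33), *Fbln2* with *Mfap4* (0.40 and 0.26) and *Eln* with *Mfap4* (0.40 and 0.24), while *Eln* and *Fbln5* had 0.25 and 0.38. In vascular wells 0 of 45 pairs exceeded 0.2 in both tumors, and the highest, *Fbn1* with *Efemp2*, had 0.17 and 0.30. These values are descriptions over wells of shared plates, and the members' own correlations with read number reached 0.29 (*Efemp2* in matrix wells). In the vascular wells of both tumors *Eln*, *Fbln1*, *Fbln2*, *Fbln5*, *Efemp1*, *Mfap4* and *Mfap5* had a median level of 0. Their pairs held many ties there, so the counts of pairs in the 2 classes cannot be compared directly.

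**Figure D5:**
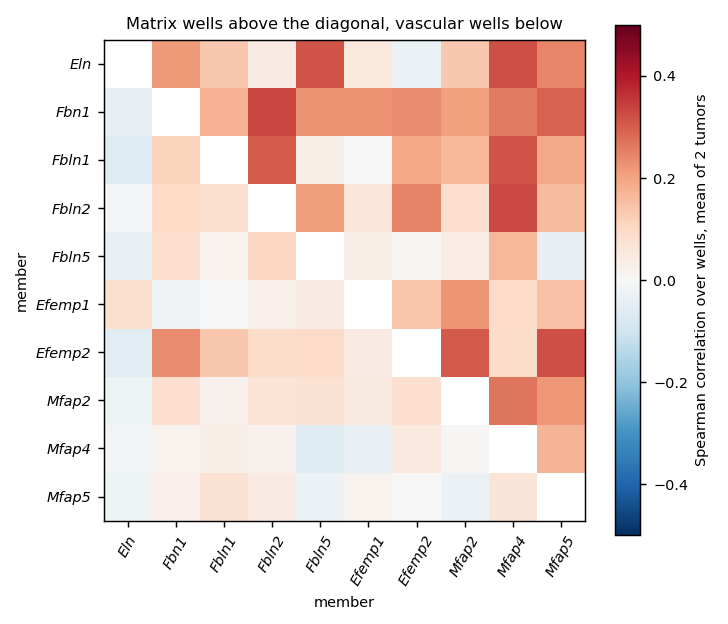
Spearman correlation between the members over wells, averaged over the 2 tumors, for matrix wells above the diagonal and vascular wells below it (colour scale from -0.5 to 0.5). Above the diagonal the values are mostly positive with a maximum of 0.33, and below it they reach 0.24.

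The closest genes of each member over matrix wells were taken by the mean rho of the 2 tumors among 7576 genes read in at least 25% of matrix wells of each tumor. *Mfap2* varied most like fibrillar collagen genes, *Col3a1* (0.65), *Col1a2* (0.55) and *Col1a1* (0.48), and *Fbn1* like *Loxl1* (0.50), a lysyl oxidase, *Fstl1* (0.49) and *Col5a1* (0.46). *Fbln2* was closest to *Lrrc15* (0.61), a fibroblast surface protein, *Col12a1* (0.60) and *Thbs2* (0.57). *Mfap5* was closest to *Igfbp6* (0.54), *Cilp* (0.52) and *Pi16* (0.50), and *Mfap4* also to *Cilp* (0.51), then *Lsp1* (0.50) and *Def6* (0.39). *Fbln1* had *Serping1* (0.56), *Cpxm1* (0.56) and *Cpxm2* (0.55). The other 4 members had lower values: *Eln* with *Ckb* (0.46), *Reck* (0.42) and *Dpep1* (0.42), *Fbln5* with *Igfbp2* (0.44), *Col11a1* (0.40) and *Ccdc80* (0.39), *Efemp2* with *Serpinh1* (0.42), *Col3a1* (0.40) and *Il11ra1* (0.40), and *Efemp1* with *Dcn* (0.39), *C1s1* (0.35) and *Adamts15* (0.34). *Efemp1* was itself read in only 20.7% and 10.7% of matrix wells, so its ranks were mostly ties, and *Dcn* defined the class. Some pairs differed between the tumors, such as *Eln* with *Dpep1* (0.598 and 0.237) and *Efemp1* with *Adamts15* (0.199 and 0.475). All values are the highest among 7576 genes, and no background was taken.

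Some of the low wells had high levels of *Eln*, *Fbln2* and *Fbln5*. Of 13 and 26 low wells, 7 and 16 had at least 4 of the 7 developmental markers. In these, *Fbln5* had mean levels of 5.51 and 7.66, *Fbln2* of 6.17 and 6.78, and *Eln* of 4.42 and 4.87. *Mfap5* (0.89 and 0.64), *Mfap2* (0.91 and 0.56) and *Mfap4* (0.00 and 0.09) were near the floor there, and *Fbn1* (3.48 and 3.54) and *Efemp2* (3.64 and 3.69) were below their level in vascular wells. *Eln* (33.7% and 25.0%), *Fbln2* (31.02% and 24.6%) and *Fbln5* (22.9% and 41.4%) together made up most of the members' summed RPKM in these wells, while *Mfap5* had 1.31% and 0.139%. The share of *Eln* rested on few wells: 1 of 7 wells gave 74.6% of its summed RPKM in tumor 1, where the mean fell from 267.8 to 79.3 RPKM without it, and 2 of 16 gave 84.5% in tumor 2. Low wells without those markers (6 and 10) had mean levels of 2.64 and 2.73 for *Fbln2*, 1.81 and 1.88 for *Fbln5* and 0.58 and 0.78 for *Eln*. Over all low wells, the mean RPKM of the 6 epithelial markers summed to 818 in tumor 1 and 195.6 in tumor 2, against 8.62 and 17.1 in matrix wells. Each of these markers was read in at most 38.5% of the low wells of a tumor, and the sums were not split by developmental markers. The part of the epithelial markers in the levels above was not tested. No test was made on the low wells with developmental markers, since they were few and were picked by the same plates' markers.

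Within the vascular class, no member passed the test between cycling wells (at least 5 of 10 cell cycle markers such as *Top2a* and *Mki67*; 23 and 22 wells) and the other vascular wells. Of 11221 genes tested in the same way with edgeR, 2.04% were called higher and 0.232% lower in cycling wells. Of the 8 members tested, 0 were called in either direction by edgeR, and 3 had an unadjusted p below 0.05 (*Fbln1*, *Mfap2* and *Mfap5*). DESeq2 called 1 member lower, where it called 5.19% of all genes higher and 3.35% lower. *Efemp1* and *Mfap4* did not pass the filter on low values. *Mfap2* came nearest, at 55.8 and 51.6 CPM (counts scaled to the library size) in cycling wells and 122.4 and 116.9 in the others, with a log2 fold change of -1.16 (SE 0.23, adjusted p = 0.0887) and an unadjusted p of 0.0032. DESeq2 called it lower (adjusted p = 0.00234), whereas edgeR with ERCC reads as the library size gave -0.38 (adjusted p = 0.303) and no call. *Mfap5* was at 1.65 and 0.545 CPM in cycling wells and 16.97 and 5.18 in the others (log2 fold change -3.32, SE 1.10, adjusted p = 0.239), and as given above its vascular reads lay in a few wells. *Fbln1* had a log2 fold change of 1.50 (SE 0.56, adjusted p = 0.284) and *Fbln5* of 0.61 (SE 0.31, adjusted p = 0.424), and with ERCC reads as the library size both were called higher, at 2.27 (adjusted p = 0.044) and 1.40 (adjusted p = 0.0455), where 16.3% of all genes were called higher and the median gene shifted by 0.75. *Fbn1* differed by 0.02 (SE 0.17), and by 0.80 (adjusted p = 0.0523, not called) with ERCC reads as the library size.

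Other genes of the pathway did not all move with the members. Of 19 partners of microfibrils and elastic fibres, 17 were tested, 10 were higher in matrix wells, 1 was lower and 6 were not called, with a median log2 fold change of 1.81, where 9.83% of all genes tested were called higher and 6.76% lower. *Tnxb* was 1 of the 10 by summed counts (1.61), but its mean level was lower in matrix wells (0.47 and 0.39 against 0.71 and 0.42). With ERCC reads as the library size, by which 29.99% of all genes were called higher, 13 of the 17 were higher (*Ltbp2*, *Adamtsl4* and *Adamts10* in addition) and 0 were lower. Of the 10, 2 passed the filter on low values only through matrix wells and so had to differ: *Hmcn1*, an extended fibulin, with a mean RPKM of 7.38 and 11.1 in matrix wells against 0.007 and 0.003, and *Fbln7*, with 64.5 and 33.2 against 0.894 and 0.251. *Vcan*, the proteoglycan versican (3.33), *Emilin1* (3.14), *Fbn2*, the second fibrillin (2.94), *Ltbp1*, which binds latent TGF-beta (2.75), and *Emilin2* (1.84) were among the other 8. *Ltbp4*, a latent TGF-beta binding protein that assists elastin assembly, was the one lower gene, at -0.72 (SE 0.15, adjusted p = 0.0296), and by the ERCC scaling it was not called (-0.05, adjusted p = 0.781).

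Among the enzymes that crosslink elastic fibres, 3 of 5 lysyl oxidases were higher in matrix wells and 4 were tested (against 9.83% of all genes, as for the counts that follow), with *Lox* at mean levels of 6.60 and 6.35 in matrix wells against 0.78 and 1.11 (log2 fold change 4.42, SE 0.30, adjusted p = 0.000811) and *Loxl1* at 8.31 and 8.03 against 1.76 and 2.07 (4.03, SE 0.19, adjusted p = 0.000303). *Loxl2* was not called (-0.27, adjusted p = 0.675), and *Loxl4* did not pass the filter. Of 15 elastin-degrading proteases and inhibitors, 9 were tested and 7 were higher. These were 4 proteases, *Mmp2* (3.74, adjusted p = 0.000336), *Ctsk* (1.98), *Ctsl* (1.50) and *Mmp14* (1.40), and 3 inhibitors, *Timp1* (1.89), *Timp2* and *Cst3*, while *Mmp7*, *Mmp12* and *Elane* were listed at 0 in both classes. *Timp3* was not called (-0.02, SE 0.17), but was called higher by the ERCC scaling (0.65, adjusted p = 0.027). Of 9 receptor genes, 7 were tested and 2 were higher, the integrin *Itgb5* (0.96, adjusted p = 0.0116) and *Glb1* (1.72, adjusted p = 0.00306), the gene that also encodes the elastin-binding protein. The ERCC scaling called 4 of the 7 higher, with *Itgav* and *Itga5* in addition. None of the 3 TGF-beta ligands was called by edgeR or DESeq2 (*Tgfb1* 0.75, *Tgfb2* -0.53, *Tgfb3* 0.37), with unadjusted p from edgeR of 0.116, 0.0443 and 0.074. When libraries were scaled to ERCC reads (a shift of 0.63 in the median gene, with 29.99% of all genes called higher), *Tgfb1* (1.42, adjusted p = 0.0422) and *Tgfb3* (1.04, adjusted p = 0.00714) were called higher and *Tgfb2* turned to 0.13. In cycling against other vascular wells, 2 of the 38 genes of these lists that were tested were called lower and 0 higher by edgeR, where 0.232% of all genes were called lower and 2.04% higher. They were *Ctsl* (-1.45, adjusted p = 0.019) and *Timp3* (-1.37, adjusted p = 0.0235), and neither was called with ERCC reads as the library size, by which *Ltbp4*, *Tgfb3*, *Itgb1* and *Timp1* were called higher instead (16.3% of all genes).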

How the data were processed

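Counts were whole reads per gene and well as deposited, and RPKM values were deposited beside them. For both, the authors aligned Smart-seq2 reads to mm10 with STAR, quantified RefSeq genes without strand, and made RPKM values with rpkmforgenes. The 41 wells with fewer than 10000 reads of mouse genes were left out. Classes followed *Rgs5* and *Dcn* as given in the report. Counts were summed per class and tumor and fitted with edgeR 4.0.16 (TMM, quasi-likelihood, Benjamini-Hochberg) in R 4.3.3, for genes whose RPKM averaged 1 or more. Levels are means of log2(RPKM + 1) over wells. DESeq2 1.42.0 and limma 3.58.1 were alternatives. Both classes were sorted from each tumor, which makes the tumor a natural block: deviations of same-tumor libraries correlated with r = 0.153 for matrix against vascular and r = 0.111 for cycling against other vascular wells. On counts simulated for matrix against vascular wells (11592 genes), the test found 98 of 100 genes changed 4-fold and 100 of 100 changed 16-fold, and called 14 of 11392 unchanged genes. The simulated counts had the same dispersion for all genes and no tumor effect, and only genes above a minimum expected count were changed. These rates therefore need not hold for the real sums. The members, classes and gene lists were chosen with earlier results of these data known. Named genes were all members, the 3 most alike genes of each, and the 12 called partner genes of largest change, beside a few others of the lists named after their values were seen. Since n = 2 tumors, p-values measure the spread between these 2 tumors only, and whether they grew in separate animals is not given in the sources used here. *Hmcn2* was not in the table used here.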

Additional observations from a re-analysis of the deposited data

Results flagged for a closer look

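Among the vascular wells, the log2 fold changes of 4 members between cycling and other wells had opposite signs in the 2 tumors, each tumor taken alone, and none of the 4 was called by edgeR in the fit of both tumors (adjusted p of 0.768 or more). The log2 fold change of *Eln* was -1.82 in tumor 1 and 0.37 in tumor 2, that of *Fbn1* 0.058 and -0.011, that of *Fbln2* 0.58 and -0.55, and that of *Efemp2* 0.42 and -0.12. The difference between the tumors was not tested, because each tumor gives 1 value.

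The 41 wells left out for low depth, 11 of tumor 1 and 30 of tumor 2, held 100255 reads, of which 0.262% fell on the members, and 39 of them had at least 1. *Fbln5* gave 80 of these reads in 3 wells, *Eln* 52 in 7 wells, *Fbn1* 45 in 21 wells and *Fbln2* 45 in 15 wells.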

How the results depend on the processing

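All 10 members were called higher in matrix wells by the 16 other fits tested at an adjusted p of 0.05. *Efemp1* and *Mfap4* had to differ, since they passed the filter on low values only through matrix wells. In the main fit 5 members were called at 0.001, where 1.31% of all genes were higher and 0.535% lower. Of these 5, *Eln*, *Fbln1* and *Efemp1* passed 0.001 in some other fits (adjusted p up to 0.001532, 0.001455 and 0.00141) and lost that call. At 0.05, 9.83% of all genes were higher and 6.76% lower. DESeq2 called 11.1% lower, limma 22.1% higher with a pseudocount of 1 and 27.9% with 0.1, and ERCC reads as the library size gave 29.99% higher, with the median of all genes at 0.63 and 86.8% of calls higher in place of 59.2%. With the replicate block (tumor), 10.4% of genes were higher and 7.005% lower, and no call on a member changed. In tumor 1 or 2 alone, each member kept its direction, with *Fbln2* between 4.92 and 6.76, *Mfap5* between 7.42 and 8.94 and *Eln* between 4.79 and 5.90. On the log2(RPKM + 1) scale of limma, *Efemp1* differed by 1.06 and *Mfap4* by 4.79.

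Between cycling and other vascular wells, 2.04% of genes were higher and 0.232% lower. DESeq2 gave 5.19% and 3.35% with 1 member lower (*Mfap2*), ERCC reads gave 16.3% and 0.454% with 2 members higher (*Fbln1* and *Fbln5*), the replicate block gave 0.348% lower, no filter 0.717% lower and at least 3 cycling markers 0.125% lower. Signs turned for *Eln* with ERCC reads (0.28), for *Fbln2* with ERCC reads (0.46) and with the replicate block (0.011), and for *Fbn1* with no filter (-0.0065) and with 3 markers (-0.043). Leaving out a tumor gave ranges of -1.82 to 0.37 for *Eln*, -0.55 to 0.58 for *Fbln2*, -0.011 to 0.058 for *Fbn1* and -0.12 to 0.42 for *Efemp2*. The cause was not tested. Members with a higher share or level in matrix wells in both tumors numbered 10 under every detection rule, thinning and pseudocount tried. With 2 tumors, and at most 21 vascular reads of *Efemp1* or *Mfap4* in a tumor, the size of their difference is poorly fixed.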

Other observations

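Matrix wells with at least 4 of the 7 developmental markers (4 in tumor 1 and 9 in tumor 2) had lower mean levels of *Mfap5* and *Mfap2* than the other matrix wells. As log2(RPKM + 1), *Mfap5* was at 0.44 and 4.83 against 9.79 and 8.85 and *Mfap2* at 1.15 and 2.97 against 7.50 and 6.55, whereas *Fbln5* was at 7.76 and 5.92 against 4.99 and 5.09 and *Fbln2* at 7.69 and 8.29 against 7.70 and 8.33. By summed counts *Mfap5* was close in tumor 2, at 1771 CPM against 1949. In tumor 1 these 4 wells gave 12.1% of the *Fbln5* reads and 0.002% of the *Mfap5* reads of the class. In tumor 2 the 9 wells gave 19.2% of the *Eln* reads, 15.2% of the *Fbln5* reads and 10.1% of the *Mfap5* reads. No test was made between so few wells.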
